A study of Homo sapiens with 16 samples.

Results

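Electrical stimulation of SH-SY5Y cells on indium tin oxide (ITO) was examined in 4 libraries of 16, 2 from stimulated and 2 from unstimulated cells, chosen by their labels and described across all genes counted. SH-SY5Y is a human neuroblastoma line that takes on neuron-like features when treated with retinoic acid and brain-derived neurotrophic factor (BDNF), and ITO is a transparent conducting oxide. Stimulated ITO cells received a square wave of 0.1 V peak to peak at 1 Hz, applied daily for 8 h during the final 4 days, and unstimulated ITO cells received none. The labels give the same culture for both groups in every other respect. The films carried poly-L-lysine and laminin, serum was stepped down to 1% through 5% (day 2) and 2.5% (day 3) by day 5, retinoic acid at 10 uM was present between day 3 and day 6, and BDNF at 50 ng/mL then followed for 4 days. The remaining libraries came from cells on P(rGO) and PEDOT:PSS films with and without the same stimulation, from cells differentiated on plates and from untreated cells, with 2 libraries in each group. No label says whether the 2 libraries of a group came from separate cultures, so the tests measure the spread between libraries, which may be technical.

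A square wave on a conducting film can depolarise nearby cells and open voltage-gated calcium channels. Calcium entry in neurons is known to induce immediate early transcription factors and activity-dependent secreted factors. Cholesterol synthesis genes are controlled as a group by the sterol regulatory element-binding proteins, which respond to membrane sterol, and metallothioneins are controlled by the metal-responsive factor MTF1.

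The ITO libraries held 20795103 and 20851000 gene counts in stimulated cells and 16611130 and 16714392 in unstimulated cells. Replicates differed by more than counting noise, with a chi-square per degree of freedom of 22 between the stimulated and 10.3 between the unstimulated libraries, and none was counted as a repeat of another. The adrenergic neuroblastoma regulators HAND2, GATA3 and ISL1 had at least 3674 counts in each ITO library. Of 14 fibroblast markers, 2 had no counts, and their summed level was 385 and 434 CPM (gene counts scaled to a common library size) in stimulated cells against 379 and 478 CPM in unstimulated cells. Immune and endothelial markers summed to 3.32 and 1.78 CPM against 2.17 and 4.07 CPM, and 6 of 13 were at 0. Schwann and glial markers summed to 19.04 and 16.4 CPM against 17.3 and 13.8 CPM, with 4 of 12 at 0, SOX10 among them. A count of 0 does not by itself show that a gene is silent, and loss of reads in counting was not tested. These are bulk libraries, in which fewer cells of a type and less RNA per cell cannot be told apart.

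No gene passed the test for stimulation on ITO. Of 18081 genes tested, 0 (0%) had an adjusted p of at most 0.05 in edgeR's quasi-likelihood test with Benjamini-Hochberg adjustment, and the smallest adjusted p was 1. At an unadjusted p under 0.05 there were 293 genes (1.62%), 102 higher (0.564%) and 191 lower (1.06%) with stimulation. That share is smaller than a threshold of 0.05 would let pass if no gene differed. The differences were small: among 11544 genes of at least 5 CPM in a group, the median size of the log2 fold change was 0.08, 189 exceeded 0.5 and 17 exceeded 1. The median standard error of these fold changes was 0.19, larger than the typical difference. Both stimulated libraries lay above both unstimulated libraries for 2607 genes (14.4%) and below them for 2344 genes (13.0%), and these shares are the background for each such count given for a gene group. Over all tested genes 52.2% had a fold change above 0 and 47.8% one below 0. Without the filter on low counts 18 genes were called, among them MT2A, HSPA6, DDIT3, PEG3, KCNK3, MTCO2P12 and MTND2P28, and without the first unstimulated library 3 were called, PEG3, KCNK3 and RBM15-AS1. Unless another film is named, fold changes are log2 of stimulated over unstimulated ITO with their 95% interval.

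Genes of lipid synthesis lay lower with stimulation. Of 27 measured genes of cholesterol synthesis and uptake, 24 lay lower and 3 higher, with a median log2 fold change of -0.31 against 0.01 for all tested genes. The 2 libraries of each group did not overlap for 20 of the 27, all lower (74.1%, against 13.0% of all genes). HMGCS1, a cytosolic synthase early in the pathway, had 225.7 and 293.3 CPM in stimulated cells against 377.8 and 310.1 CPM in unstimulated cells, a log2 fold change of -0.41 (-0.82 to 0.0038). Both stimulated libraries were below both unstimulated ones, but the second stimulated library came close to the second unstimulated one.

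Several other steps of the pathway had fold changes of similar or larger size. FDFT1, squalene synthase, had 8.21 and 9.63 CPM in stimulated cells against 16.9 and 16.1 CPM in unstimulated cells, a log2 fold change of -0.88 (-1.50 to -0.27). ACAT2, the cytosolic thiolase that feeds the pathway, had 103.0 and 144.0 CPM against 176.9 and 166.6 CPM, a log2 fold change of -0.48 (-0.90 to -0.05). For both genes the groups were separate. MVD, mevalonate diphosphate decarboxylase, had 95.7 and 127.7 CPM against 158.8 and 148.5 CPM, and NSDHL, a sterol dehydrogenase, had 35.0 and 48.9 CPM against 57.6 and 57.5 CPM, with log2 fold changes of -0.46 (-1.07 to 0.15) and -0.46 (-0.91 to -0.0029). SQLE, squalene epoxidase, had 146.0 and 185.8 CPM against 215.8 and 207.2 CPM, a log2 fold change of -0.35 (-0.69 to -0.01). INSIG1, which retains the sterol sensor in the endoplasmic reticulum, had 114.6 and 150.2 CPM against 172.8 and 177.5 CPM. In every one of these genes the first stimulated library was the lowest of the 4. Without it the log2 fold changes were -0.25 for ACAT2, -0.23 for HMGCS1, -0.26 for MVD, -0.23 for NSDHL and -0.19 for SQLE, while FDFT1 stayed between -1.002 and -0.771 with any 1 library left out. FDFT1 had the lowest level of the genes named here, and whether its reads were fully counted was not tested.

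The 3 members that lay higher were those that act in the opposite direction on cell cholesterol. ABCA1 and ABCG1 export cholesterol and MYLIP promotes removal of lipoprotein receptors. ABCA1 had 4.69 and 5.87 CPM in stimulated cells against 4.38 and 5.59 CPM in unstimulated cells, and ABCG1 had 6.10 and 5.404 CPM against 5.45 and 5.88 CPM. MYLIP had 7.79 and 4.98 CPM against 5.63 and 4.84 CPM, and the groups overlapped for all 3. SREBF2, which encodes the main transcription factor of the pathway, had 354.3 and 382.4 CPM against 407.0 and 405.6 CPM.

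Fatty acid synthesis showed the same direction in 13 of 15 measured genes, with a median log2 fold change of -0.21 and 7 of 15 lower with no overlap (46.7%). FASN, fatty acid synthase, had 830.9 and 1230 CPM in stimulated cells against 1351 and 1386 CPM in unstimulated cells, a log2 fold change of -0.41 (-0.91 to 0.09), or -0.15 without the first stimulated library. FADS2, a desaturase, had 460.1 and 627.2 CPM against 681.2 and 701.1 CPM, and SCD, which makes monounsaturated fatty acids, had 1113 and 1455 CPM against 1537 and 1521 CPM. Both lists were larger in size when the libraries numbered 1 were set against each other, at -0.52 for cholesterol and -0.36 for fatty acids, than for those numbered 2, at -0.19 and -0.03. Without the first stimulated library the medians were -0.19 and -0.06, and without the second -0.48 and -0.38.

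The sequence ahead of 1 of the 2 HMGCS1 starts listed is shown as the example of a sterol pathway promoter, 250 bases read 5′ to 3′ from the RefSeq promoter table (GRCh38.p14), with capitals for CCAAT on either strand, a box bound by NF-Y.
HMGCS1, chr5:43313413-43313662, minus strand: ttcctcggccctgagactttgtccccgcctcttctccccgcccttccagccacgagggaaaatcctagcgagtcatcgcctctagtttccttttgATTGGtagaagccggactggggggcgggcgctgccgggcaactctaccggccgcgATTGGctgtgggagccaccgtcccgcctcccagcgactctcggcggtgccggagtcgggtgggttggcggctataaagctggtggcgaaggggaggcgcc
The box occurred 2 times, starting 155 and 100 bases before the start, and 32.0% of the 35116 promoters in the table hold it in a window of this length. The sterol element TCACNCCAC, searched on both strands, was in 0.883% of promoters, and none of the windows of HMGCS1, INSIG1, NSDHL, MVD, DHCR7, IDI1, FDPS or LSS held these letters.

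**Figure D1:**
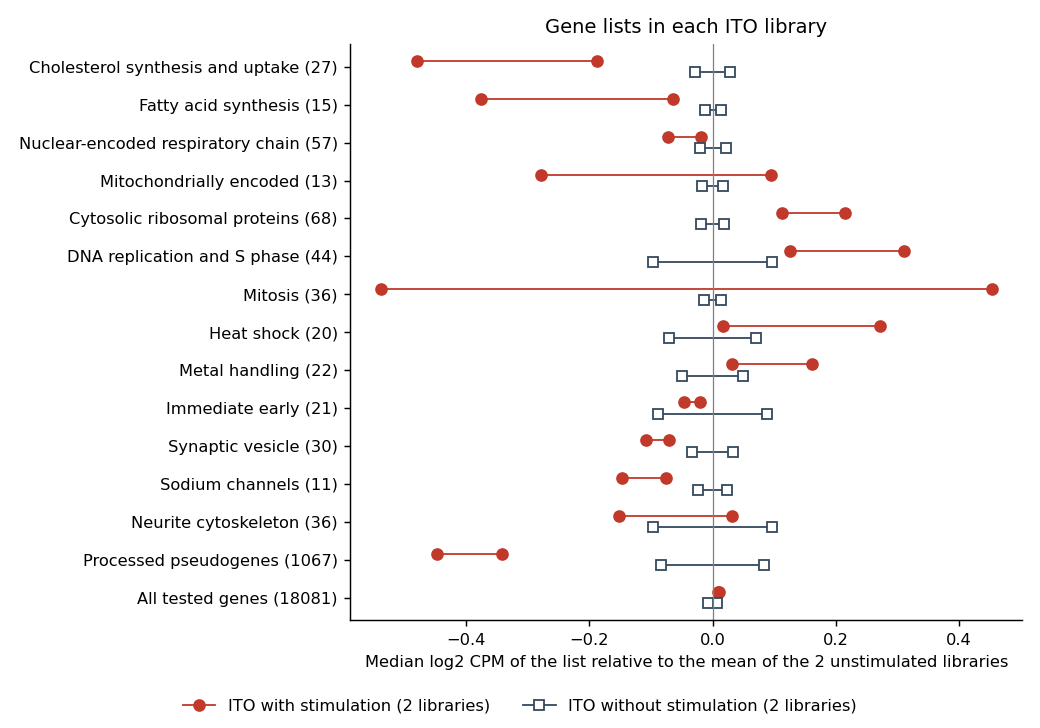
Each row is a gene list with its number of tested genes in brackets. Filled circles are the 2 stimulated and open squares the 2 unstimulated ITO libraries, placed at the list's median log2 CPM relative to the unstimulated mean; both stimulated libraries lie left of both unstimulated ones for cholesterol and fatty acid synthesis and for processed pseudogenes, and on opposite sides of them for mitosis.

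Genes of metal and heat stress were higher mainly in 1 of the 2 stimulated libraries. MT2A, a metallothionein that binds zinc and copper, had 34.4 and 3.15 CPM in stimulated cells against 4.68 and 2.74 CPM in unstimulated cells, a log2 fold change of 2.34 (0.45 to 4.22). Without the first stimulated library the fold change was -0.23, so its direction rests on that library. MT1F, another metallothionein, had 4.65 and 2.21 CPM against 1.42 and 1.05 CPM, a log2 fold change of 1.47 (0.28 to 2.66) with no overlap, and 0.84 at its lowest with 1 library left out. SLC30A1, the zinc exporter of the plasma membrane, had 87.3 and 53.2 CPM against 42.0 and 46.8 CPM, a log2 fold change of 0.66 (0.10 to 1.22), or 0.26 without the first stimulated library. For MT1F and SLC30A1 both stimulated libraries were the higher ones, the first more so. Of 22 metal handling genes measured, 17 lay higher and 5 lower with a median of 0.13, and 2 (9.09%, against 14.4% of all genes) did not overlap. Without the first stimulated library the median was 0.03. MTF1, the metal-responsive factor, had 31.6 and 34.0 CPM against 29.4 and 36.9 CPM, and FTH1, the ferritin heavy chain, had 889.0 and 741.6 CPM against 837.2 and 747.2 CPM.

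The promoters of MT2A and SLC30A1 are shown because both genes are known targets of MTF1, whose binding core is TGCACNC or TGCGCNC. Each is 250 bases before the start, 5′ to 3′, from RefSeq (GRCh38.p14), with capitals for the core on either strand.
MT2A, chr16:56608334-56608583, plus strand: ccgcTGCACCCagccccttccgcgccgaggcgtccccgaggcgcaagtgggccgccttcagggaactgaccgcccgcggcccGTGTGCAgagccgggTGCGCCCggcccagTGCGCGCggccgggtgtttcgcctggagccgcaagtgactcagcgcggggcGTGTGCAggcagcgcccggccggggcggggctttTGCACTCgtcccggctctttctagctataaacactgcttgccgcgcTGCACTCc
SLC30A1, chr1:211579162-211579411, minus strand: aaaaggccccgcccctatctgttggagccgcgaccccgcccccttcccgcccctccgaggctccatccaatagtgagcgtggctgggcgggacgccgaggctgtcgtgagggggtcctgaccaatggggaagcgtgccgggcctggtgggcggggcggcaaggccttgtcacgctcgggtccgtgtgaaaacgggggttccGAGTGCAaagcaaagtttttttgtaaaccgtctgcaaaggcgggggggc
The core occurred 7 times ahead of MT2A and 1 time ahead of SLC30A1, 49 bases before its start, and 24.8% of all promoters hold it in this window. MT1X had 4 matches, and its level was 1.83 and 0.09 CPM in stimulated cells against 0.24 and 0.17 CPM in unstimulated cells.

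All 20 measured heat shock genes had a positive fold change, with a median of 0.17, and 5 of the 20 (25.0%, against 14.4%) did not overlap. The list holds 25 genes, and 5 had no count in any ITO library, HSPA1A, HSPA1B and HSF1 among them. The median was 0.02 without the first stimulated library and 0.08 without the second unstimulated one. DNAJB1, a co-chaperone of HSP70, had 288.9 and 129.1 CPM in stimulated cells against 132.3 and 127.3 CPM in unstimulated cells, a log2 fold change of 0.69 (0.01 to 1.36), which was -0.005 without the first stimulated library. BAG3, which links HSP70 to autophagy, had 18.96 and 6.34 CPM against 9.18 and 8.16 CPM, and HSPB8, its small heat shock partner, had 6.24 and 1.175 CPM against 2.19 and 0.93 CPM. HSP90AA1, the inducible HSP90, had 2734 and 1731 CPM against 2044 and 1583 CPM. In DNAJB1, BAG3 and HSPB8 the second stimulated library lay inside or below the unstimulated range. HSPA6, an HSP70 that is almost silent without stress and was picked after its values were seen, had 26.6 and 2.30 CPM against 4.20 and 1.69 CPM, a log2 fold change of 2.29 (0.58 to 4.00) that became -0.35 without the first stimulated library.

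The HSPA6 promoter is shown because its 250 bases, from RefSeq (GRCh38.p14), hold a heat shock element, searched on both strands as 3 blocks that alternate between GAA and TTC with NN between blocks. The element is in capitals.
HSPA6, chr1:161524290-161524539, plus strand: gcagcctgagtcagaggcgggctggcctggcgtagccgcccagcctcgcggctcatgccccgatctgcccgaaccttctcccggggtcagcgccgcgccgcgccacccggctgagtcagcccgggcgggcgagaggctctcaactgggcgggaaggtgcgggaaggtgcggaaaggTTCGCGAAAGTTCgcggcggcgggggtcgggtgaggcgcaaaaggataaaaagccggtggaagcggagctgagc
This element starts 74 bases before the gene, and 0.441% of promoters hold 1 in this window. HSPA8, with 2 matches, had 1651 and 1433 CPM in stimulated cells against 1493 and 1352 CPM in unstimulated cells, and DNAJB1 had no match at the 3 starts listed for it.

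Several genes of oxidative and endoplasmic reticulum stress were also high in the first stimulated library. DDIT3, the stress transcription factor CHOP, had 46.6 and 9.73 CPM in stimulated cells against 15.4 and 10.4 CPM in unstimulated cells. SLC7A11, the cystine importer, had 25.9 and 6.44 CPM against 9.53 and 5.07 CPM, and HMOX1, heme oxygenase, had 8.73 and 1.175 CPM against 3.02 and 1.63 CPM. The first stimulated library was highest for all 3, with the second inside or below the unstimulated range. NQO1, a quinone reductase, had 54.2 and 39.2 CPM against 46.5 and 45.6 CPM, and HSPA5, the chaperone of the endoplasmic reticulum, had 213.2 and 259.4 CPM against 341.9 and 249.6 CPM. Of 32 oxidative stress genes 24 lay higher. Without overlap, 0 were higher (0%, against 14.4% of all genes) and 2 lower (6.25%, against 13.0%). Of 30 genes of the unfolded protein response 17 lay lower, and 5 were lower without overlap (16.7%, near the 13.0% of all genes).

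**Figure D2:**
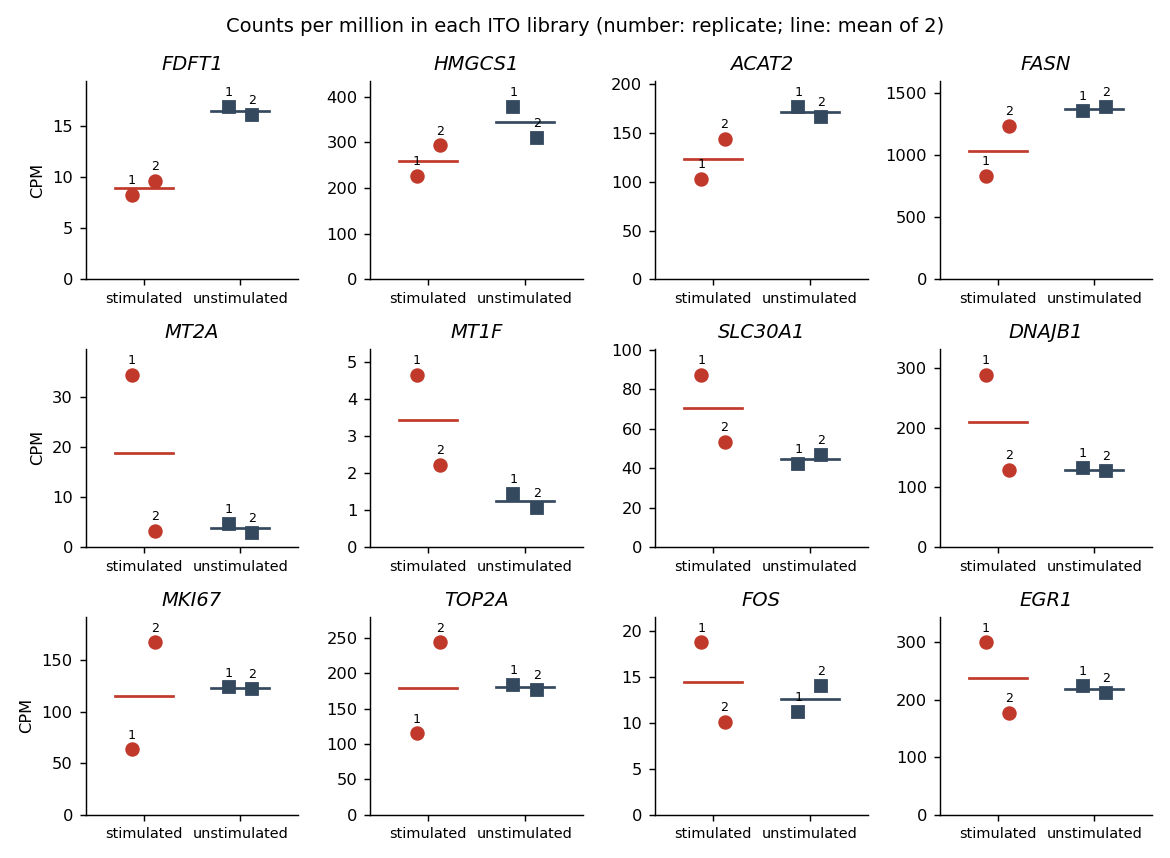
Each panel is 1 gene, with CPM from 0 on the vertical axis, the 2 stimulated ITO libraries as circles on the left and the 2 unstimulated ones as squares on the right, numbered by replicate, with their means as lines. FDFT1 at 8.21 and 9.63 against 16.9 and 16.1 CPM is separate, whereas MT2A and DNAJB1 are high in the first stimulated library and MKI67 and TOP2A are lowest in it.

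Translation genes were slightly higher as lists, more so in the first stimulated library. Relative to the unstimulated mean, the ribosomal protein median was 0.215 in the first and 0.112 in the second stimulated library. Of 68 measured cytosolic ribosomal protein genes, 64 lay higher, with a median log2 fold change of 0.17, and for 58 (85.3%, against 14.4% of all genes) both stimulated libraries lay above both unstimulated ones. RPS14 had 818.4 and 830.5 CPM in stimulated cells against 682.2 and 641.0 CPM in unstimulated cells, a log2 fold change of 0.32 (-0.10 to 0.74). RPLP0 had 802.7 and 793.9 CPM against 642.4 and 729.5 CPM, and RPL3 had 771.4 and 755.2 CPM against 644.5 and 663.7 CPM. The differences were small beside their intervals but had the same sign across nearly the whole list. Of 22 translation factors and snoRNA host genes, 21 lay higher, median 0.24, with 16 separate (72.7%). Without the first stimulated library the medians of these lists were 0.11 and 0.16. EEF2, the elongation factor that moves the ribosome, had 3320 and 2954 CPM against 2488 and 2695 CPM, and GAS5, a snoRNA host transcript, had 170.1 and 125.4 CPM against 102.4 and 113.1 CPM, a log2 fold change of 0.45 (-0.25 to 1.16), or 0.22 without the first stimulated library. The share of gene counts in ribosomal protein genes was 3.52% and 3.28% in stimulated cells and 3.01% and 2.99% in unstimulated cells. Ribosomal protein genes have many near-identical processed copies whose counts lay lower with stimulation, and the part of reads shared with those copies in this result was not tested.

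Respiratory chain subunits encoded in the nucleus leaned lower. Of 57 measured, 40 lay lower, with a median of -0.05, and 20 (35.1%, against 13.0%) did not overlap, and the median was -0.02 without the first stimulated library. COX6A1, a subunit of cytochrome c oxidase, had 21.7 and 21.2 CPM in stimulated cells against 28.7 and 29.1 CPM in unstimulated cells, a log2 fold change of -0.43 (-0.78 to -0.08). ATP5F1E, of ATP synthase, had 101.6 and 110.9 CPM against 123.4 and 132.1 CPM, a log2 fold change of -0.27 (-0.50 to -0.04), and COX7B had 46.5 and 48.3 CPM against 57.2 and 61.3 CPM, a log2 fold change of -0.32 (-0.64 to -0.01). All 3 were separate, with little spread inside a group. CMC2, which has a role in cytochrome c oxidase biogenesis, had 10.8 and 12.97 CPM against 16.3 and 16.2 CPM, a log2 fold change of -0.45 (-0.82 to -0.08). The 13 genes of the mitochondrial genome had a median of -0.02, with 5 higher and 8 lower, but the replicates went opposite ways. Between the libraries numbered 1 the median was 0.13 with 10 of 13 higher, and between those numbered 2 it was -0.21 with 0 of 13 higher. It was -0.28 without the first stimulated library and 0.09 without the second.

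Cell cycle genes showed how far the 2 stimulated libraries differed from each other. MKI67, which marks cycling cells, had 63.3 and 166.9 CPM in stimulated cells against 123.4 and 122.0 CPM in unstimulated cells, a log2 fold change of -0.09 (-0.83 to 0.65). TOP2A, topoisomerase of dividing cells, had 114.9 and 243.5 CPM against 183.4 and 177.0 CPM, a log2 fold change of -0.01 (-0.75 to 0.74). The stimulated libraries lay on either side of the close unstimulated pair. Over 36 mitosis genes the median was 0.03, made up of -0.54 between the libraries numbered 1, with 1 gene higher, and 0.43 between those numbered 2, with 35 higher. Genes of DNA replication and S phase were less divided. All 44 had a positive fold change, median 0.23, and 20 (45.5%, against 14.4%) did not overlap. The median was -0.01 with 21 of 44 higher between the libraries numbered 1, and 0.42 with 44 of 44 between those numbered 2. It was 0.12 without the second stimulated library and 0.13 without the second unstimulated one. CDT1, which licenses replication origins, had 43.6 and 50.5 CPM against 33.6 and 34.1 CPM, a log2 fold change of 0.47 (-0.11 to 1.06), and MCM5, of the replicative helicase, had 65.1 and 70.0 CPM against 54.7 and 48.1 CPM. Both genes were higher in both stimulated libraries, whereas PCNA, the polymerase clamp, had 81.0 and 115.1 CPM against 99.1 and 91.9 CPM.

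Immediate early genes, the usual readout of recent depolarisation, showed no common direction. Of 21 measured, 10 lay higher and 11 lower with a median of -0.01, and 3 higher (14.3%, against 14.4%) and 1 lower (4.76%, against 13.0%) did not overlap. FOS had 18.8 and 10.1 CPM in stimulated cells against 11.2 and 14.04 CPM in unstimulated cells, a log2 fold change of 0.19 (-0.94 to 1.33). EGR1 had 299.0 and 176.4 CPM against 223.2 and 212.2 CPM, a log2 fold change of 0.13 (-0.95 to 1.20). The groups overlapped, and both intervals reach far to either side of 0. JUN had 70.5 and 53.01 CPM against 42.7 and 50.0 CPM, NR4A1 had 42.4 and 25.5 CPM against 29.96 and 25.2 CPM, and ARC had 21.6 and 15.7 CPM against 16.6 and 18.8 CPM. JUN alone of these 5 had both stimulated libraries above both unstimulated ones. Among 16 targets of calcium and CREB signalling 12 lay lower, 4 of them without overlap (25.0%), with a median of -0.10 that was -0.20 without the first stimulated library and -0.05 without the second. VGF, a secreted neuropeptide precursor, had 5469 and 4417 CPM against 5207 and 5264 CPM, BDNF had 0.33 and 0.89 CPM against 0.71 and 0.76 CPM, and VIP, vasoactive intestinal peptide, had 46.4 and 73.2 CPM against 68.0 and 136.4 CPM. INHBA, a subunit of activin, had 35.2 and 31.1 CPM against 87.6 and 32.1 CPM, a gap set by the first unstimulated library.

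Markers of the neuronal state differed little beside their spread. STMN2, a growth cone protein, had 1840 and 1955 CPM in stimulated cells against 2037 and 1696 CPM in unstimulated cells, a log2 fold change of 0.02 (-0.32 to 0.37). MAP2, of dendritic microtubules, had 433.6 and 420.7 CPM against 420.2 and 355.8 CPM, a log2 fold change of 0.14 (-0.16 to 0.43). SYP, synaptophysin, had 265.1 and 236.1 CPM against 268.2 and 231.6 CPM. Over 36 neurite cytoskeleton genes the median was -0.01, with 17 higher and 19 lower, but the replicates went opposite ways. Between the libraries numbered 1 the median was -0.17 with 5 of 36 higher, and between those numbered 2 it was 0.13 with 31 higher. Synaptic vesicle genes leaned lower, 21 of 30 with a median of -0.08 and 7 without overlap (23.3%, against 13.0%), as did 9 of 11 sodium channel genes, median -0.09, with 5 without overlap (45.5%). Without the first unstimulated library the synaptic vesicle median was 0.02, and the sodium channel median was -0.16 without the second. SCN3B, an auxiliary sodium channel subunit, had 123.0 and 132.2 CPM against 152.2 and 137.7 CPM. NTRK2, the BDNF receptor, had 284.0 and 399.2 CPM against 358.6 and 372.7 CPM, and RET, the receptor for GDNF family ligands, had 2049 and 2423 CPM against 2838 and 2566 CPM. RET was lower in both stimulated libraries and NTRK2 overlapped. SLIT1, an axon repellent, had 51.2 and 52.9 CPM against 40.6 and 32.3 CPM, a log2 fold change of 0.51 (0.04 to 0.98). Other genes of low level also separated. CHRM2, a muscarinic acetylcholine receptor, had 1.36 and 1.88 CPM against 0.47 and 0.87 CPM, a log2 fold change of 1.26 (0.34 to 2.18), and NEUROG2, a proneural factor, had 0.94 and 1.97 CPM against 0.36 and 0.70 CPM.

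The genes named next have at least 5 CPM, separate libraries and the smallest unadjusted p once clones, pseudogenes, non-coding and antisense genes are set aside, and none passed the adjusted test. On the higher side were INSM2, a zinc finger factor, with 26.6 and 22.1 CPM in stimulated cells against 19.2 and 12.1 CPM in unstimulated cells, a log2 fold change of 0.64 (0.20 to 1.08) that was 0.35 without the second unstimulated library and 1.02 without the first, and TEKT2, a ciliary tektin, with 12.2 and 10.5 CPM against 7.70 and 7.98 CPM, a log2 fold change of 0.53 (0.16 to 0.90). LRP11 had 11.9 and 9.59 CPM against 6.28 and 6.41 CPM, a log2 fold change of 0.76 (0.18 to 1.34), and TLE6, of the Groucho corepressor family, had 8.54 and 6.86 CPM against 4.38 and 5.30 CPM. Both libraries of each group lay close together for TEKT2 and LRP11. CDON, a co-receptor of Hedgehog ligands, had 36.1 and 29.8 CPM against 25.1 and 25.7 CPM, a log2 fold change of 0.38, or 0.24 without the first stimulated library, CTSF, a lysosomal protease, had 79.6 and 70.4 CPM against 55.7 and 59.0 CPM, and ITFG2 had 25.5 and 23.7 CPM against 19.2 and 18.9 CPM. SLC30A1, FAM124A and ANKRD36B completed the 10, with log2 fold changes of 0.66, 0.58 and 0.53. ANKRD36B has near-identical paralogues and its count is uncertain.

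On the lower side, FDFT1, ACAT2, COX6A1, CMC2 and ATP5F1E were joined by 5 others. TUBA1C, an alpha tubulin, had 15.7 and 20.4 CPM in stimulated cells against 34.0 and 31.2 CPM in unstimulated cells, a log2 fold change of -0.85 (-1.47 to -0.23). TMSB4X, thymosin beta 4, which sequesters actin, had 156.6 and 179.6 CPM against 231.6 and 243.2 CPM, a log2 fold change of -0.50 (-0.93 to -0.07). GRAMD1B, which carries cholesterol from the plasma membrane to the endoplasmic reticulum, had 17.7 and 21.9 CPM against 28.8 and 23.3 CPM, a log2 fold change of -0.40 (-0.75 to -0.04) that was -0.25 without the first stimulated and -0.23 without the first unstimulated library. KCNJ2, an inward rectifier potassium channel, had 3.00 and 5.64 CPM against 6.69 and 13.6 CPM, a log2 fold change of -1.23 (-2.21 to -0.25), with the second unstimulated library far above the others and -0.63 without it. MAGED4B had 3.90 and 3.99 CPM against 6.93 and 6.12 CPM. MAGED4B and TUBA1C have near-identical paralogues, and COX6A1, TMSB4X and ATP5F1E have 7, 5 and 2 processed pseudogenes named after them in the table, so reads shared with copies make these 5 counts uncertain.

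Processed pseudogenes, retrotransposed copies of messenger RNAs, lay lower as a class, one singled out after its values were seen. Of 1067 tested, 870 lay lower and 197 higher with stimulation, with a median log2 fold change of -0.43, and 501 (47.0%, against 13.0% of all genes) lay lower with no overlap. They made up 5.90% of the genes tested but 90 of the 191 genes lower at an unadjusted p under 0.05 (47.1%). The 13058 protein-coding genes had a median of 0.02. YBX1P1, on chromosome 14 at 66012830 to 66013789 (GRCh38, GENCODE 29), had 18.5 and 24.0 CPM in stimulated cells against 34.4 and 32.0 CPM in unstimulated cells, a log2 fold change of -0.65 (-1.09 to -0.20). CALM2P3 had 2.72 and 3.71 CPM against 8.35 and 5.42 CPM, and YWHAZP3 had 4.04 and 4.18 CPM against 8.17 and 7.11 CPM. For all 3 both stimulated libraries lay below both unstimulated ones, on ITO and also on P(rGO) and PEDOT:PSS. For YWHAZP3 on PEDOT:PSS the nearest libraries were at 6.254 and 6.255 CPM. MTCO1P40, also lower without overlap on ITO, overlapped on both other films. The class as a whole had a median of -0.195 on P(rGO), with 702 lower and 365 higher. Relative to the unstimulated mean, its library medians there were -0.448 and 0.047 in stimulated cells against -0.007 and 0.007 in unstimulated cells. On PEDOT:PSS its median was -0.221, with 777 lower and 290 higher.

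Nuclear copies of mitochondrial genes lay further down, 16 of 16 lower with a median of -0.89 and 14 without overlap (87.5%). A pair of them lies close together on chromosome 1. MTND2P28, at 629640 to 630683, had 15.2 and 15.7 CPM in stimulated cells against 31.0 and 30.6 CPM in unstimulated cells, a log2 fold change of -0.99 (-1.68 to -0.30). MTCO2P12, at 632757 to 633438, had 43.2 and 38.9 CPM against 78.7 and 75.5 CPM, a log2 fold change of -0.91 (-1.50 to -0.32). The mitochondrial genes they are named for overlapped between groups. MT-ND2 had 2342 and 2160 CPM against 2067 and 2375 CPM, and MT-CO2 had 4631 and 3222 CPM against 4228 and 3714 CPM. Ribosomal protein copies lay lower in 208 of 258 with a median of -0.34, the opposite sign to the genes they derive from. On P(rGO) and PEDOT:PSS these copies had medians of 0.014 and -0.268, and the mitochondrial copies had -0.111 and -0.175.

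The share of reads aligned also differed between the groups. Reads that were not aligned made up 8.96% and 9.48% of reads in the stimulated ITO libraries against 13.8% and 13.5% in the unstimulated ones, and processed pseudogenes took 0.261% and 0.271% of gene counts against 0.362% and 0.323%. Of the other films, stimulated PEDOT:PSS libraries, at 9.56% and 13.4% unaligned, had pseudogene shares of 0.301% and 0.347%, and stimulated P(rGO) libraries, at 10.8% and 13.5% unaligned, had 0.254% and 0.366%. The unstimulated shares were 0.390% and 0.357% on PEDOT:PSS and 0.329% and 0.332% on P(rGO). In each of the 8 groups the library with fewer unaligned reads had the smaller pseudogene share. Coding genes of at least 5 CPM that have a processed pseudogene named after them had a median log2 fold change of 0.025 (1523 genes), against 0.01 for the 9116 without one. Of the 1523, 298 lay higher and 120 lower without overlap, and of the 9116, 1221 and 942 did. With ribosomal protein genes left out, 242 of 1458 genes with a copy lay higher and 118 lower without overlap. The part of alignment in the other differences was not tested.

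**Figure D3:**
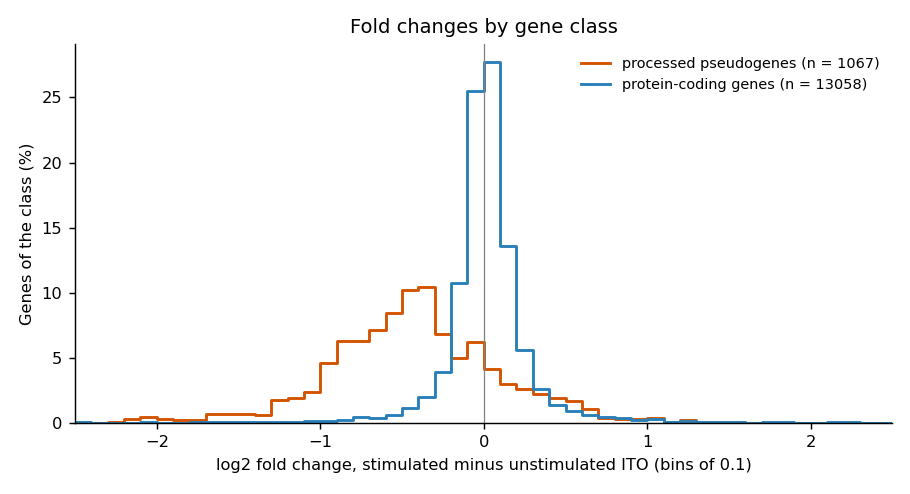
The horizontal axis is the log2 fold change of stimulated over unstimulated ITO in bins of 0.1 and the vertical axis the percentage of each gene class. Protein-coding genes centre near their median of 0.02 and processed pseudogenes near -0.43, with a long left side.

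**Figure D4:**
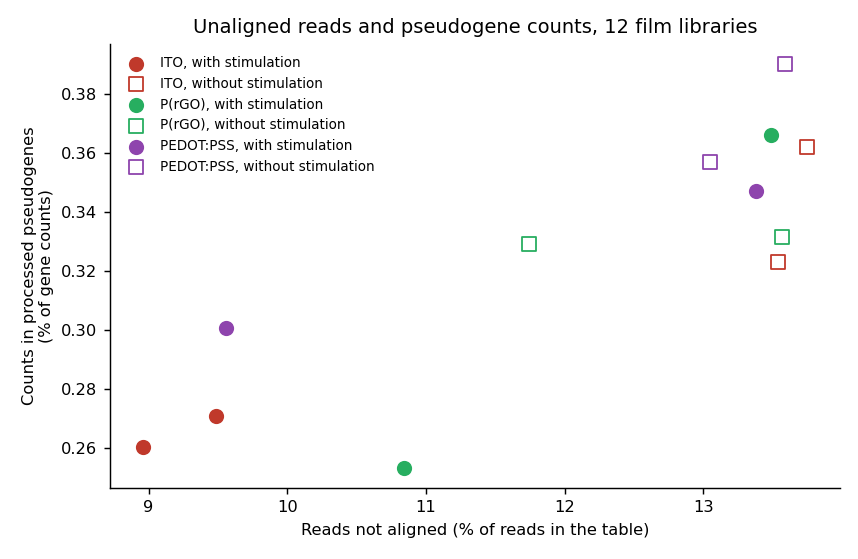
Each point is 1 of the 12 film libraries, with the percentage of reads not aligned on the horizontal axis and the percentage of gene counts in processed pseudogenes on the vertical axis, filled for stimulated and open for unstimulated cells. The stimulated ITO libraries sit at 8.96% and 9.48% unaligned, below both unstimulated ITO libraries at 13.8% and 13.5%.

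Some of the largest apparent differences came from a single library. Among genes of at least 5 CPM, 25 were over 2-fold higher in the second unstimulated library than in each of the other 3 ITO libraries, and 17 in the first stimulated library, against 2 in the second stimulated and 1 in the first unstimulated. KCNK3, a leak potassium channel, had 60.4 and 62.3 CPM in stimulated cells against 56.4 and 175.7 CPM in unstimulated cells, a log2 fold change of -0.92 (-1.64 to -0.20) that became 0.12 without the second unstimulated library. PEG3, an imprinted zinc finger gene, had 53.7 and 60.4 CPM against 52.2 and 187.0 CPM, a log2 fold change of -1.07 (-1.88 to -0.26) that became 0.13 without it. The 15 other libraries of the series lay between 52.2 and 86.3 CPM for KCNK3 and between 37.3 and 61.1 CPM for PEG3. SYTL2, SYN3, GFRA1 and INSYN1 were highest in the same unstimulated library, at 12.9, 9.96, 12.6 and 13.7 CPM.

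Stimulation on ITO was set against stimulation on the other films, each with its own unstimulated libraries. The difference passed for 0 genes (0%) against P(rGO), 0 (0%) against PEDOT:PSS and 0 (0%) against the mean of both in edgeR's quasi-likelihood test, and 252 (1.39%), 128 (0.708%) and 184 (1.02%) had an unadjusted p under 0.05. Those more positive on ITO were 0.658%, 0.310% and 0.442% of genes and those more negative 0.736%, 0.398% and 0.575%. Stimulation within the other films also gave 0 called genes each (0%), with 986 (5.45%) on P(rGO) and 126 (0.697%) on PEDOT:PSS at an unadjusted p under 0.05. The higher and lower shares were 2.48% and 2.98% on P(rGO) and 0.315% and 0.382% on PEDOT:PSS. INSM2, 0.64 on ITO, had a log2 fold change of -0.17 on PEDOT:PSS, a difference of 0.81 ± 0.29 (SE) with an adjusted p of 1 by edgeR, or 0.51 without the second unstimulated ITO library. SLIT2, an axon repellent, had 0.22 on ITO and -1.71 on P(rGO), a difference of 1.93 ± 0.57 (SE) with an adjusted p of 1 by edgeR. PLPP1, a lipid phosphatase, had -0.40 on ITO and 0.28 on PEDOT:PSS, a difference of -0.68 ± 0.24 (SE).

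Several lists had like medians on the 3 films and others did not. Cholesterol synthesis had -0.31 on ITO, -0.27 on P(rGO) and -0.19 on PEDOT:PSS, and fatty acid synthesis -0.21, -0.29 and -0.13. MT2A had log2 fold changes of 2.34, 2.35 and 1.53 and SLC30A1 of 0.66, 0.92 and 0.47 on the same 3 films, and in stimulated P(rGO) cells MT2A had 33.6 and 7.33 CPM, again uneven between libraries, against 5.84 and 2.14 CPM in unstimulated ones. The library numbered 1 was the higher of the 2 for MT2A and DDIT3 in all 3 stimulated film groups. It was also the higher for both genes in unstimulated ITO and P(rGO) cells, but not in unstimulated PEDOT:PSS cells. HSPA6 had 5.80 and 5.85 CPM in stimulated against 1.43 and 0.64 CPM in unstimulated P(rGO) cells, and 8.52 and 5.17 CPM in stimulated against 1.92 and 1.30 CPM in unstimulated PEDOT:PSS cells. On those films both stimulated libraries lay above both unstimulated ones for HSPA6, as they did for 18.1% of all genes on P(rGO) and 17.7% on PEDOT:PSS. The shares below were 20.4% and 18.7%. Mitosis genes had a median of 0.03 on ITO, -0.84 on P(rGO) and -0.51 on PEDOT:PSS, and MKI67 had 30.2 and 44.0 CPM in stimulated against 73.3 and 106.1 CPM in unstimulated P(rGO) cells. DNA replication genes had 0.23 on ITO, -0.17 on P(rGO) and -0.12 on PEDOT:PSS. Ribosomal protein genes had 0.17 on ITO and 0.25 on P(rGO) but -0.08 on PEDOT:PSS. These medians carry no test.

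**Figure D5:**
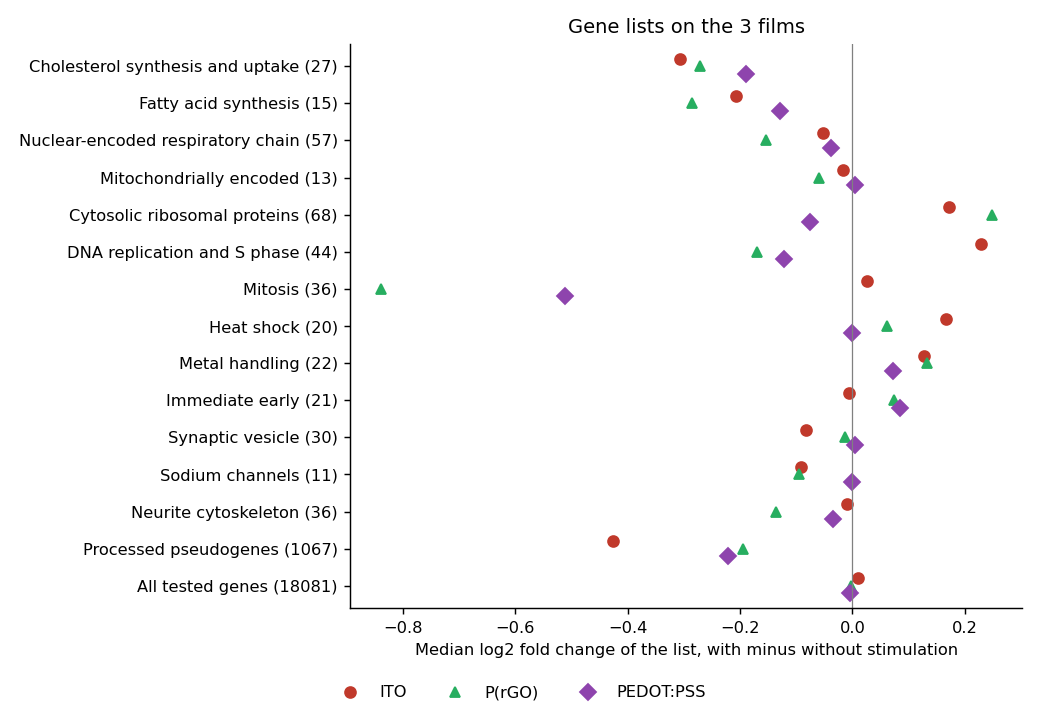
Each row is a gene list with its number of tested genes, and the points give its median log2 fold change with over without stimulation on ITO (circle), P(rGO) (triangle) and PEDOT:PSS (diamond). Cholesterol and fatty acid synthesis lie left of 0 on all 3 films, while mitosis lies at 0.03 on ITO and at -0.84 and -0.51 on the others.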

How the data were processed

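Per the labels' protocols, libraries were strand-specific and made from polyA-selected RNA. The submitters' processing notes name STAR, HTSeq and the builds GRCh38.p13 and hg38; versions, annotation release and strand setting are not given in the sources used here. The authors deposited 1 table of raw counts for 69222 genes in 16 libraries, of which 32387 have no count. The 5 summary lines of the table stayed out of library sizes and tests and left 70.0% to 73.9% of reads as gene counts in the ITO libraries. Symbols matched 62686 IDs, and gene classes and positions came from GENCODE 29.

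Counts were tested with edgeR 4.0.16 (R 4.3.3): filterByExpr over 8 groups, TMM scaling, 1 mean per group, quasi-likelihood F-tests with robust spread on all 16 libraries, and Benjamini-Hochberg adjustment over 18081 genes at 0.05. Intervals are 95%. CPM are TMM-scaled; summed marker levels are unscaled. DESeq2 1.42.0 and other settings were alternatives, and the fit was tested on simulated data. Lists hold 1240 genes in 47 groups. Members and lists were chosen with earlier results of these data known. Named genes are the 10 smallest p in each direction with separate libraries and at least 5 CPM, leaving out clones, pseudogenes, non-coding and antisense genes, the 2 smallest p of each list, landmark genes (HSPA1A, NPAS4 and CHGA were not tested), the 3 smallest p in each direction of each film difference, and further list members given as examples after their values were seen. Some genes that this rule names are not reported here.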

Additional observations from a re-analysis of the deposited data

Results flagged for a closer look

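The DNA replication and S phase list had a median log2 fold change of 0.23 with stimulation on ITO. Both stimulated library medians, 0.125 and 0.311, lay above both unstimulated ones, 0.096 and -0.096, but the nearest 2 were close. Between the ITO libraries numbered 1 the median was -0.01, with 21 of 44 genes higher. The list median was -0.17 on P(rGO) and -0.12 on PEDOT:PSS, with both stimulated library medians below both unstimulated ones. The difference between films was not tested. The list of adrenergic core transcription factors had a median of 0.10 on ITO and -0.05 on PEDOT:PSS, and this difference was not tested. On ITO the library medians were 0.014 and 0.184 in stimulated cells against -0.012 and 0.012 in unstimulated cells, a separation of very small size. The ITO median was 0.012 without the second stimulated library.

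Reads outside the gene counts also differed. Reads with more than 1 alignment averaged 6.35% in the stimulated ITO libraries and 6.13% in the unstimulated ones, and reads assigned to more than 1 gene averaged 4.13% and 3.84%, with no overlap between groups in either.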

How the results depend on the processing

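For stimulation on ITO, 0 genes were called under relative log expression scaling, a replicate block, DESeq2, the 12 film libraries alone, the libraries compared alone, and protein-coding genes alone, an alternative chosen after seeing the data. Without a low-count filter 18 genes were called for stimulation on ITO, among them MT2A, HSPA6, PEG3 and KCNK3, and 15, 1 and 5 for its difference from P(rGO), from PEDOT:PSS and from their mean; the cause was not tested. Leaving out 1 ITO library gave 0 to 3 calls for stimulation on ITO, 0 to 2 against P(rGO), 0 to 0 against PEDOT:PSS and 0 to 3 against the mean. All came without the first unstimulated library, and PEG3 and KCNK3 were 2 of the 3.

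Only part of the named genes were followed through the alternatives, and these kept their sign under every alternative that leaves no library out. With 1 library left out, log2 fold changes spanned -0.23 to 3.21 for MT2A, -0.35 to 3.17 for HSPA6, -0.005 to 1.16 for DNAJB1, -0.32 to 0.58 for FOS, -0.30 to 0.46 for EGR1, -0.10 to 0.16 for STMN2, -0.95 to 0.45 for MKI67, -0.65 to 0.44 for TOP2A, -1.71 to 0.13 for PEG3 and -1.52 to 0.12 for KCNK3. List medians spanned -0.48 to -0.19 for cholesterol, 0.11 to 0.22 for ribosomal proteins, 0.12 to 0.32 for replication, -0.54 to 0.46 for mitosis and -0.51 to -0.33 for processed pseudogenes.

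With the replicate number as a block 0 genes were called and 328 had an unadjusted p under 0.05. Same-numbered libraries share a name prefix in the labels, which do not say what it marks. Their deviations correlated above 0.1 in 15 of 28 pairs of groups, from -0.17 to 0.28, and in 12 of 15 pairs of film groups. For stimulated with unstimulated cells the values were 0.18 on ITO, 0.26 on P(rGO) and 0.14 on PEDOT:PSS. With 2 libraries a group this does not settle whether the numbers pair libraries, and the fit without the block was kept. With 2 libraries a group, only changes that are large beside the spread can pass.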
